A study of Mus musculus with 12 samples.

Results

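The TGFβ ligands, receptors and Smads were followed in kidney RNA as a set of 10 genes: the ligands *Tgfb1*, *Tgfb2* and *Tgfb3*, the receptors *Tgfbr1*, *Tgfbr2* and *Tgfbr3*, the signal carriers *Smad2* and *Smad3*, the inhibitor *Smad7*, and *Tgfbi*, a matrix protein whose gene is induced by TGFβ. They were taken by gene symbol from a table of 35275 genes, and each symbol had 1 row. RNASeq had been carried out on kidney tissue from 12 mice at 6 months of age, all on the C57BL/6J strain, with 4 mice in each of 3 groups. WT mice carried no introduced mutation. RC/RC mice carried the hypomorphic RC mutation of *Pkd1*, the gene most often mutated in polycystic kidney disease, on both chromosomes, and develop a slowly progressive cystic disease. RC/RC:Casp1KO mice carried the same *Pkd1* alleles and, on both chromosomes, a small TALEN-made deletion in *Casp1*, the gene for caspase-1, that takes out the active-site cysteine and a splice donor and was bred from a single mutation. Each group held 2 males and 2 females, but the count columns name the mouse and its group and not its sex, so no value by sex is given. The mice are called W1 to W4 (WT), R1 to R4 (RC/RC) and K1 to K4 (RC/RC:Casp1KO), in the order of their columns.

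TGFβ ligands are secreted in a latent form, bound to their own propeptide and to latent TGFβ binding proteins, and act once they are released. A released ligand binds the type II receptor, encoded by *Tgfbr2*, which activates the type I receptor, encoded by *Tgfbr1*, while betaglycan, encoded by *Tgfbr3*, presents ligand to them. The activated receptor phosphorylates SMAD2 and SMAD3, which enter the nucleus with SMAD4 and switch on genes for matrix proteins and for contractile proteins of myofibroblasts, and SMAD7 is induced as a brake on the receptor. In the kidney the pathway is best known as a driver of interstitial fibrosis.

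Promoter windows, the 250 bases before the RefSeq start site in the GRCm38.p6 (mm10) build, are shown for the 3 genes with an entry among the 4 whose counts differed between RC/RC and WT kidneys. They are read 5′ to 3′ on the strand of the gene, and capitals mark matches to CAGAC or GTCTG, the short motif that SMAD3 and SMAD4 bind, and to GGGCGG or CCGCCC, the GC box bound by Sp1.
*Tgfb1*, chr7:25686752-25687001, plus strand: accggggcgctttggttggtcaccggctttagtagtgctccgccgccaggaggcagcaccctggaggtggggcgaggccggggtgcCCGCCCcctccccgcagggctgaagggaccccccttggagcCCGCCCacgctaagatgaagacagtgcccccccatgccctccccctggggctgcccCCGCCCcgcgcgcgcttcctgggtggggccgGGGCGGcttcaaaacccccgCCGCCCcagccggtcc
*Tgfbr2*, chr9:116175364-116175613, minus strand: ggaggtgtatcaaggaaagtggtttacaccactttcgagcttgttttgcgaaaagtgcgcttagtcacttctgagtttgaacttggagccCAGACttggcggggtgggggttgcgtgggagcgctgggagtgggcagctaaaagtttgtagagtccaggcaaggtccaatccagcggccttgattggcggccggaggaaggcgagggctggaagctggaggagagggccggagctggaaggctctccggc
*Tgfbi*, chr13:56609336-56609585, plus strand: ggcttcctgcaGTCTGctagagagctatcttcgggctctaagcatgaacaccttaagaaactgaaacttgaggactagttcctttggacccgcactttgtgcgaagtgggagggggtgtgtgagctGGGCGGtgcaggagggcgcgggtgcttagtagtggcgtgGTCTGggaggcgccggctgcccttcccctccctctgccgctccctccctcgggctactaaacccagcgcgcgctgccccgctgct
The *Tgfb1* window held 5 GC boxes and no SMAD motif, with a GC content of 75.2%. The *Tgfbr2* window held 1 SMAD motif, 160 bases before the start, and the *Tgfbi* window held 2, at 239 and 85 bases before the start, with 1 GC box at 124. Both motifs are common, since 42.2% of 32851 RefSeq promoter windows of this length held a SMAD motif and 32.7% held a GC box on either strand. Searched likewise on both strands, the AP-1 motif TGANTCA (in 6.75% of all windows), the cAMP response element TGACGTCA (in 1.55%) and the TEAD motif GGAATG or CATTCC (in 12.6%) were not found in these 3 windows. *Tgfb3* is named only.

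In the deposited table, *Tgfb1* lies at chr7:25687002-25705077, *Tgfb3* at chr12:86056744-86079041, *Tgfbr2* at chr9:116087698-116175363 and *Tgfbi* at chr13:56609603-56639339. Between 20556335 and 22656309 reads were counted per WT mouse, between 18019819 and 24284831 per RC/RC mouse and between 18738755 and 24869454 per RC/RC:Casp1KO mouse. Levels of the 10 genes are given as FPKM, the counted reads scaled by gene length and library total, which can be compared between genes, and fold changes come from the counts by edgeR's quasi-likelihood test called at 0.05 after Benjamini-Hochberg adjustment over all genes tested. The libraries of a group were not evenly alike. By chi-square per degree of freedom over genes, WT mice W1 and W2 (17.7) and W3 and W4 (16.4) were close pairs, against 89.8 to 127 between the pairs, and so were RC/RC:Casp1KO mice K1 and K2 (15.7) and K3 and K4 (31.8), against 67.1 to 93.4. Among RC/RC mice R3 and R4 (37.2) were the closest, and the other pairs were at 67.6 to 128. What sets these pairs apart is not named in the columns, its part in the results was not tested, and no mouse was put in a subgroup by its values. As a check on the labels, *Casp1* had 26 to 43 counts in WT mice, 61 to 87 in RC/RC mice and 10 to 23 in RC/RC:Casp1KO mice, so every library labelled knockout had fewer counts than every other library. The RC allele of *Pkd1* changes an amino acid, so the level of its RNA was not used to check the label. It was 40.4 to 67.1 CPM (counts scaled to the TMM-adjusted library size) in WT, 46.7 to 67.0 in RC/RC and 56.3 to 86.1 in RC/RC:Casp1KO kidneys.

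The first comparison asked which TGFβ genes differ in cystic kidneys. In RC/RC compared to WT kidneys, 4 of the 10 genes were upregulated, namely *Tgfb1*, *Tgfb3*, *Tgfbr2* and *Tgfbi*, and none was downregulated. In all 4 the groups did not overlap. For background, 9.76% of the 15243 genes tested were called higher, 3.18% were called lower, and 12.7% were higher with no overlap between the groups. The median log2 fold change was 0.54 over the 10 genes and -0.02 over all genes tested.

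*Tgfb1*, the ligand with the highest transcript level, measured 14.5, 9.41, 9.51 and 7.69 FPKM in WT mice W1 to W4, and 23.5, 34.8, 24.3 and 15.3 FPKM in RC/RC mice R1 to R4. The lowest RC/RC mouse was thus just above the highest WT mouse. On the log2 scale it rose by 1.15 ± 0.24 (SE, adjusted p = 0.0143), or 2.23-fold. *Tgfb3* had the largest fold change of the 10 genes, from 1.03, 0.640, 0.690 and 0.822 FPKM in the WT mice to 2.65, 4.79, 2.91 and 2.14 FPKM in the RC/RC mice. Its log2 fold change was 1.87 ± 0.27 (SE, adjusted p = 0.00259), or 3.65-fold. *Tgfb3* overlaps *Ttll5* on the opposite strand, whose counts summed to 257% of its own, and the strand setting of the counting is not given in the sources used here. The log2 fold change of *Ttll5* was -0.19 ± 0.16 (SE, adjusted p = 0.447), so its counts did not follow those of *Tgfb3*. *Tgfb2* measured 1.31, 1.41, 0.535 and 0.383 FPKM in WT and 3.36, 2.30, 1.40 and 1.07 FPKM in RC/RC mice. The groups overlapped, as 2 RC/RC mice lay below the highest WT mouse, and the close pairs of WT mice differed, with W1 and W2 above W3 and W4. Among RC/RC mice, R1 and R2 likewise lay above R3 and R4. The log2 fold change of *Tgfb2*, 1.04 ± 0.46, did not pass the test (adjusted p = 0.169), with a 95% interval from 0.0062 to 2.07. That fit holds no term for such a split within the groups.

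Of the receptors, only the type II receptor was upregulated. *Tgfbr2* measured 19.7, 18.8, 22.9 and 20.4 FPKM in the WT mice and 42.5, 42.6, 36.2 and 34.4 FPKM in the RC/RC mice, with a gap between the groups. The rise on the log2 scale was 0.83 ± 0.11 (SE, adjusted p = 0.00171), or 1.78-fold. The type I receptor *Tgfbr1* measured 12.3 to 12.9 FPKM in WT and 11.9 to 17.5 FPKM in RC/RC mice, with a log2 fold change of 0.10 and a 95% interval from -0.14 to 0.34. The co-receptor *Tgfbr3* measured 8.36 to 10.6 FPKM in WT and 8.69 to 13.0 FPKM in RC/RC mice, with a log2 fold change of 0.06 and a 95% interval from -0.23 to 0.35. For both, the upper bound lay below the lower bound of *Tgfbr2*, which was 0.59.

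None of the 3 Smad genes passed the test. *Smad2*, which carries the signal from the receptor, measured 8.19 to 11.9 FPKM in WT and 11.1 to 13.6 FPKM in RC/RC mice, with a log2 fold change of 0.25 (95% interval -0.07 to 0.57, adjusted p = 0.268). *Smad3*, which binds DNA at the motif above, measured 7.42 to 9.61 FPKM in WT and 6.71 to 13.1 FPKM in RC/RC mice, with a log2 fold change of 0.10 (95% interval -0.27 to 0.47, adjusted p = 0.728). *Smad7*, the inhibitor, measured 7.84 to 9.42 FPKM in WT and 9.33 to 13.0 FPKM in RC/RC mice, with a log2 fold change of 0.19 (95% interval -0.08 to 0.47, adjusted p = 0.328). Each interval leaves out a 2-fold rise of the kind seen for *Tgfb1*, but the intervals do not show that the levels were equal. At the protein level Smads are switched by phosphorylation, which RNASeq does not measure.

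The induced matrix gene *Tgfbi* measured 8.06, 6.51, 5.59 and 6.89 FPKM in the WT mice and 24.5, 32.1, 20.4 and 17.5 FPKM in the RC/RC mice. The lowest RC/RC mouse was well above the highest WT mouse. The log2 fold change was 1.70 ± 0.18 (SE, adjusted p = 0.000595), or 3.25-fold, the smallest adjusted p-value of the 10 genes. All 4 calls of this comparison held when any single mouse was left out.

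**Figure D1:**
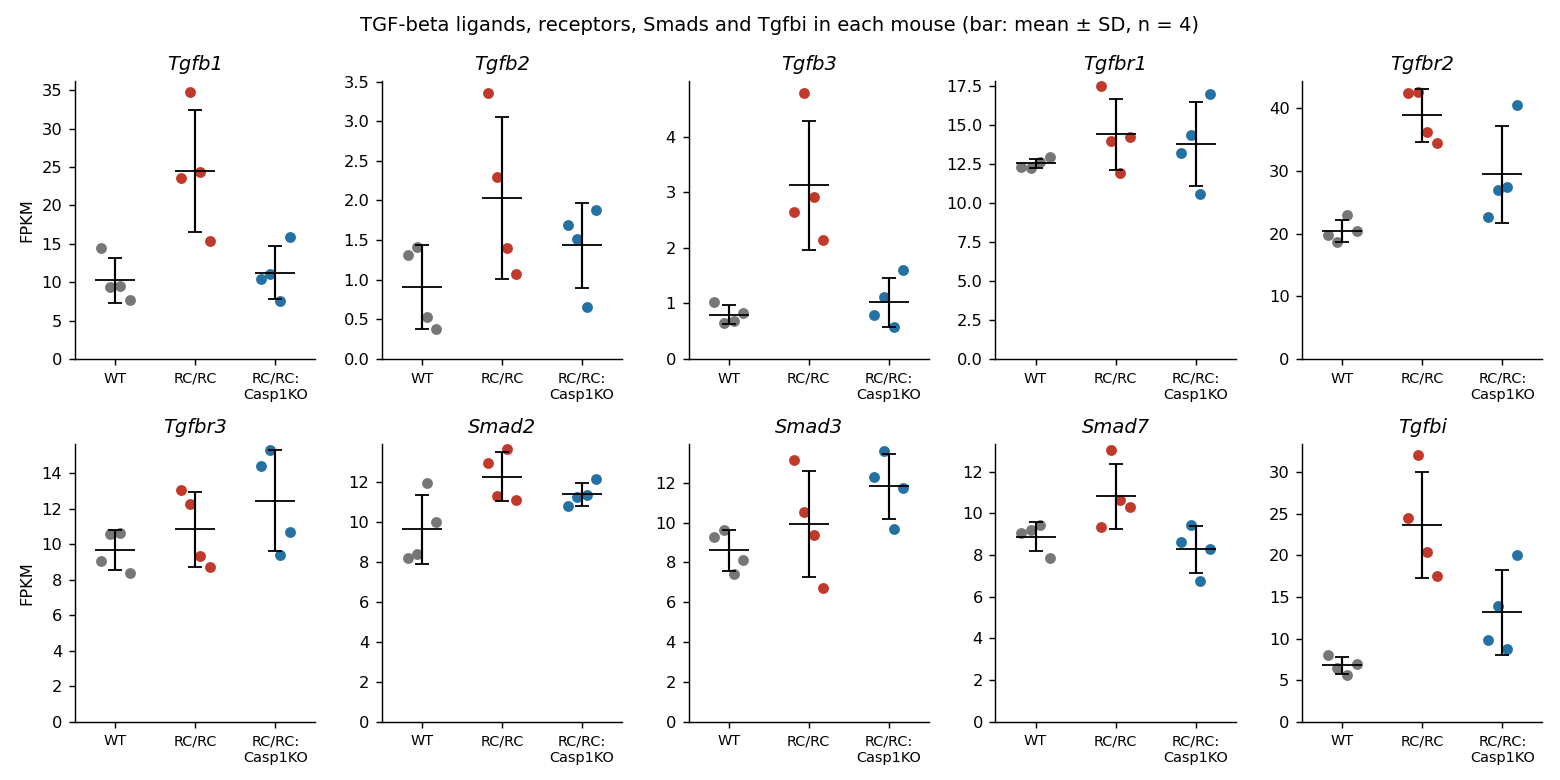
Transcript level in FPKM (linear y axes from 0, 1 panel per gene) of the 10 genes in each of the 4 WT, 4 RC/RC and 4 RC/RC:Casp1KO mice, with points for mice and bars for mean ± SD. *Tgfb3*, *Tgfbr2* and *Tgfbi* stand highest in RC/RC mice with no overlap with WT, and the panels for *Tgfbr1*, *Tgfbr3*, *Smad2* and *Smad3* show overlapping groups.

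The second comparison asked what the loss of *Casp1* does to these genes in mice with the same *Pkd1* alleles. In RC/RC:Casp1KO compared to RC/RC kidneys, *Tgfb1*, *Tgfb3* and *Tgfbi* were downregulated, 3 of the 10 genes, and none was upregulated. Of the 15428 genes tested, 4.41% were called lower and 7.23% higher, and the median log2 fold change was -0.45 over the 10 genes and -0.03 over all genes tested. This comparison uses the same RC/RC mice as the first, so a high or low value in them enters both with opposite sign.

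*Tgfb1* measured 10.5, 11.1, 7.53 and 15.9 FPKM in RC/RC:Casp1KO mice K1 to K4. The highest of them lay above the lowest RC/RC mouse on this scale, so the groups overlapped. With TMM scaling the groups did not overlap, at 17.0 to 32.0 CPM against 34.8 to 71.8 CPM in RC/RC mice. On the log2 scale it fell by 1.17 ± 0.24 (SE, adjusted p = 0.0210). *Tgfb3* measured 0.784, 1.11, 0.583 and 1.60 FPKM in the same mice, all below every RC/RC mouse. Its log2 fold change was -1.67 ± 0.32 (SE, adjusted p = 0.0170), while that of *Ttll5* was -0.10 ± 0.12 (SE, adjusted p = 0.607). *Tgfb2* measured 1.69, 1.51, 0.655 and 1.87 FPKM, within the RC/RC range for all but 1 mouse, with a log2 fold change of -0.54 (95% interval -1.34 to 0.26).

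*Tgfbi* measured 9.86, 13.9, 8.77 and 19.997 FPKM in RC/RC:Casp1KO mice K1 to K4, and mouse K4 lay within the RC/RC range. On the log2 scale the difference was -0.90 ± 0.24 (SE, adjusted p = 0.0437). *Tgfbr2* measured 22.7, 27.0, 27.5 and 40.5 FPKM in the same mice, and mouse K4 was again the highest. Its log2 fold change of -0.45 ± 0.16 did not pass the test (adjusted p = 0.0983). Without mouse K4 it did, at -0.62 (adjusted p = 0.0284).

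*Smad7* measured 6.75 to 9.46 FPKM in RC/RC:Casp1KO mice, against 9.33 to 13.0 in RC/RC mice. Its log2 fold change was -0.44 ± 0.13 (SE), just outside the threshold with edgeR (adjusted p = 0.0556) and inside it with DESeq2 (adjusted p = 0.0309) or without RC/RC mouse R1 (adjusted p = 0.0185). As for *Tgfb1*, its groups overlapped in FPKM but not with TMM scaling, while those of *Tgfb3* overlapped on neither scale, and 9.18% of all genes tested were lower with no overlap. For *Smad7* the gap was narrow, at 37.19 CPM in RC/RC:Casp1KO mouse K2 against 37.45 CPM in RC/RC mouse R1. The remaining 4 genes lay close to 0: the log2 fold changes were -0.12 for *Tgfbr1* (95% interval -0.41 to 0.18), 0.16 for *Tgfbr3* (-0.19 to 0.51), -0.16 for *Smad2* (-0.40 to 0.09) and 0.21 for *Smad3* (-0.13 to 0.55). In the RC/RC:Casp1KO mice *Tgfbr1* measured 10.6 to 17.0 FPKM, *Tgfbr3* 9.38 to 15.3 FPKM, *Smad2* 10.8 to 12.2 FPKM and *Smad3* 9.70 to 13.6 FPKM, each overlapping the RC/RC range.

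The calls of the second comparison depended on single mice more than those of the first. Without RC/RC mouse R3, or RC/RC:Casp1KO mouse K1 or K2, none of the 10 genes passed the test in edgeR. The sizes of the changes moved little: for *Tgfb1* the log2 fold change was -1.15, -1.14 and -1.15 in these fits (adjusted p = 0.0601, 0.0604 and 0.0645), and for *Tgfb3* it was -1.68, -1.56 and -1.70 (adjusted p = 0.0509, 0.0516 and 0.0525). For *Tgfbi* it was -0.94, -0.78 and -0.92 (adjusted p = 0.0917, 0.103 and 0.101), and the call of *Tgfbi* was also lost without RC/RC mouse R2 (-0.72, adjusted p = 0.119) or RC/RC:Casp1KO mouse K3 (-0.78, adjusted p = 0.0899).

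The third comparison set RC/RC:Casp1KO against WT kidneys. None of the 10 genes was called by edgeR, against 1.13% of 15346 genes called higher and 0.893% called lower. At an unadjusted p-value under 0.05 there were 4 genes, and DESeq2 called 1, *Tgfbi*. *Tgfbi* was higher than WT in all 4 RC/RC:Casp1KO mice, a separation seen in 7.47% of all genes tested, and its log2 fold change was 0.82 ± 0.23 (SE, adjusted p = 0.110 with edgeR and 0.0245 with DESeq2). *Tgfbr2* differed by 0.40 ± 0.17 (SE, adjusted p = 0.209), *Smad3* by 0.32 ± 0.11 (SE, adjusted p = 0.153) and *Smad7* by -0.24 ± 0.09 (SE, adjusted p = 0.194). For the ligands the 95% intervals were wide, from -0.52 to 0.52 for *Tgfb1*, from -0.47 to 0.90 for *Tgfb3* and from -0.51 to 1.52 for *Tgfb2*. These intervals include differences in either direction, so they do not show that the levels were equal.

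**Figure D2:**
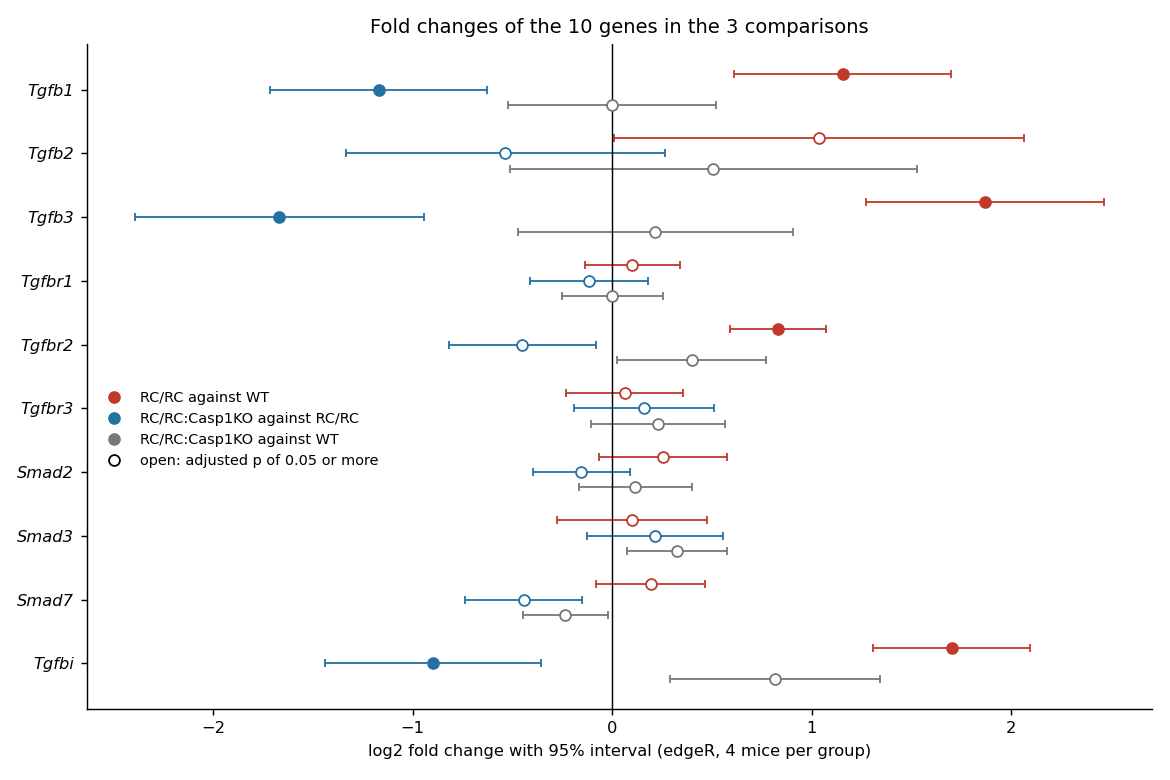
Log2 fold change with its 95% interval (x axis, edgeR, 4 mice per group) of the 10 genes in the 3 comparisons, with filled points for an adjusted p-value under 0.05. Filled points lie to the right of 0 for *Tgfb1*, *Tgfb3*, *Tgfbr2* and *Tgfbi* in RC/RC against WT and to the left for *Tgfb1*, *Tgfb3* and *Tgfbi* in RC/RC:Casp1KO against RC/RC.

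Some mice were the highest or lowest of their group for several of the 10 genes. RC/RC mouse R2 had the highest FPKM of its group in 5 of the 10 genes, among them *Tgfb1*, *Tgfb3*, *Tgfbr2* and *Tgfbi*, and RC/RC mouse R4 had the lowest in 8. In the RC/RC:Casp1KO group, mouse K4 was highest in 7 genes and mouse K3 lowest in 8. In WT, mouse W3 was highest in 4 genes and mouse W4 lowest in 4. Whether the groups differ in this was not tested. As sex is not named in the columns, whether these mice differ in sex was not tested.

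Summed over the 3 ligands, the transcript level was 11.97 ± 3.39 FPKM (SD, n = 4) in WT, 29.6 ± 9.58 in RC/RC and 13.7 ± 4.37 in RC/RC:Casp1KO kidneys. *Tgfb1* made up 79.7% to 88.6% of this sum in the 12 mice, so the sum largely follows *Tgfb1*. The share of *Tgfb3* was 6.85% ± 1.63 in WT, 10.5% ± 1.21 in RC/RC and 7.26% ± 1.08 in RC/RC:Casp1KO mice (SD, n = 4 each). The RC/RC range of 8.97% to 11.6% overlapped the WT range of 5.58% to 9.24% and lay above the RC/RC:Casp1KO range of 6.05% to 8.24%.

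**Figure D3:**
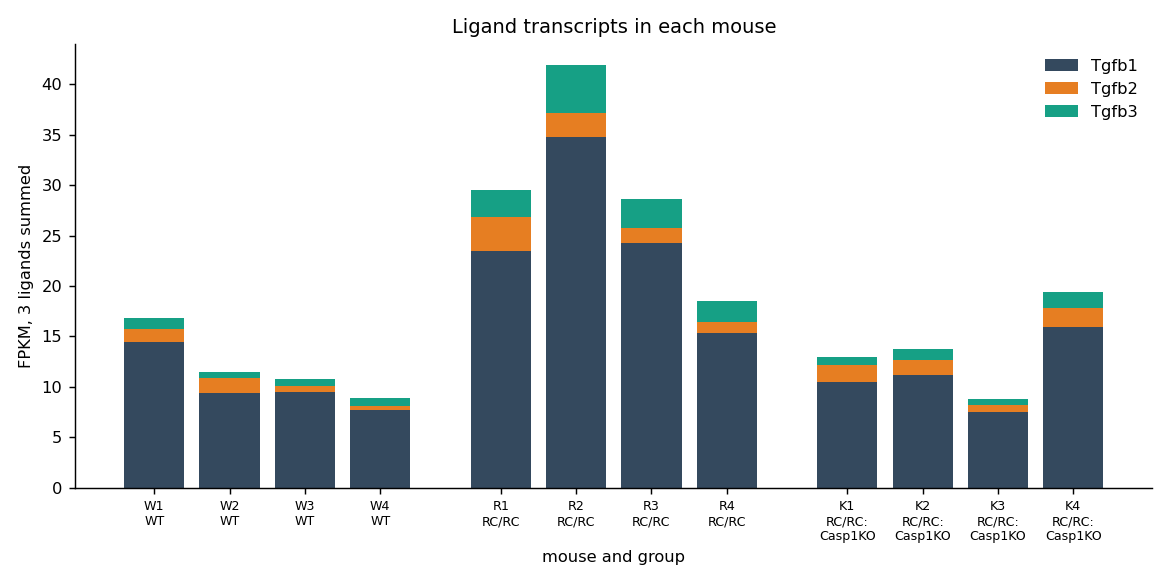
Summed FPKM of *Tgfb1*, *Tgfb2* and *Tgfb3* (y axis from 0) in each of the 12 mice, stacked by ligand and grouped by genotype. The dark *Tgfb1* segment fills 79.7% to 88.6% of every bar, and RC/RC mouse R2 has the tallest bar at 41.9 FPKM.

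The order of the mean levels also differed between the groups. *Tgfbr2* had the highest mean in each, at 20.4 ± 1.78 FPKM in WT, 38.9 ± 4.22 in RC/RC and 29.4 ± 7.69 in RC/RC:Casp1KO kidneys (SD, n = 4 each). In WT kidneys *Tgfbr2* lay above the next gene, *Tgfbr1*, without overlap, while *Tgfbr1*, *Tgfb1*, *Tgfbr3*, *Smad2*, *Smad7*, *Smad3* and *Tgfbi* followed at 12.5 to 6.76 FPKM, with each neighbour overlapping the next. In RC/RC kidneys *Tgfb1* (mean 24.5 FPKM, range 15.3 to 34.8) and *Tgfbi* (23.6 ± 6.33 FPKM) took the places after *Tgfbr2*, and every *Tgfbi* value lay at or above the highest *Tgfbr1* value. In RC/RC:Casp1KO kidneys *Tgfbr1* (13.8 ± 2.67 FPKM) came after *Tgfbr2*, and *Tgfbi* (13.1 ± 5.08 FPKM) and *Tgfb1* (11.3 ± 3.47 FPKM) overlapped it. *Tgfb2* and *Tgfb3* were the lowest in all 3 groups and overlapped each other.

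Further pathway genes were read from 6 lists. In RC/RC compared to WT kidneys 30 of the 86 pathway genes tested were called higher and none lower, where 9.76% of all genes were called higher and 3.18% lower. These are edgeR calls, and over all genes DESeq2 called more, 3018 against 1971. Of 13 genes of the latent complex and its activation, DESeq2 called 7 and edgeR 5, or 4 to 8 by edgeR with a mouse left out. The 5 were upregulated, and the list median log2 fold change was 0.55. The largest was *Ltbp2*, a matrix protein of the latent TGFβ binding protein family that does not itself bind TGFβ: its CPM was 1.05, 0.431, 0.849 and 1.12 in the WT mice and 43.3, 63.8, 32.3 and 27.4 in the RC/RC mice. Its groups lay far apart, with a log2 fold change of 5.57 ± 0.37 (SE, adjusted p = 6.52e-05). *Thbs1*, which encodes thrombospondin 1, an activator of latent TGFβ, rose by 1.19 ± 0.19 on the log2 scale (adjusted p = 0.00472), and *Ltbp4*, which binds latent TGFβ1, by 1.03 ± 0.22 (adjusted p = 0.0147). *Lrrc32*, which encodes the GARP anchor of latent TGFβ at the cell surface, rose by 0.90 ± 0.25 (adjusted p = 0.0418), but this call was lost when most single mice were left out, as without RC/RC mouse R2 (log2 fold change 0.62).

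Of 17 genes listed as other ligands of the TGFβ superfamily and their antagonists, 7 were upregulated in RC/RC kidneys, with a list median of 0.57. Among the 7 was *Bmp1*, which despite its name encodes a protease and not a ligand. *Grem1*, a BMP antagonist, measured 0.478, 0.431, 0.350 and 0.281 CPM in the WT mice and 4.77, 13.5, 8.36 and 3.61 CPM in the RC/RC mice. Every RC/RC mouse was several times above every WT mouse, with a log2 fold change of 4.27 ± 0.48 (SE, adjusted p = 0.000806). *Inhba*, which encodes the activin A subunit, did not exceed 4 counts in the WT mice and reached 1.13 to 2.21 CPM in RC/RC mice, with a log2 fold change of 3.496 ± 0.383 (adjusted p = 0.000728). *Dcn*, which encodes the TGFβ-binding proteoglycan decorin, rose by 2.47 ± 0.24 (adjusted p = 0.000394) and *Fstl1*, which encodes a follistatin-like glycoprotein, by 1.93 ± 0.24 (adjusted p = 0.00148). These genes include antagonists as well as ligands, so the list does not move in 1 functional direction.

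The other receptors and the Smad machinery moved less. Of 11 other receptors and co-receptors tested, 2 were upregulated and the list median was 0.10. *Cd109*, a TGFβ co-receptor that inhibits signalling, rose by 1.39 ± 0.34 on the log2 scale (adjusted p = 0.0263), and *Acvr1*, a BMP type I receptor, by 0.43 ± 0.12 (adjusted p = 0.0428). Neither was called without WT mouse W3 (log2 fold changes 1.21 and 0.40), WT mouse W4 (1.29 and 0.41), RC/RC mouse R2 (1.11 and 0.33) or RC/RC mouse R3 (1.41 and 0.45), and *Acvr1* was also lost without WT mouse W1 (0.42), WT mouse W2 (0.45) or RC/RC mouse R1 (0.42). None of the 5 other Smads was called by edgeR or DESeq2, and 1 had an unadjusted p-value under 0.05, with a list median of 0.01. Among 19 Smad partners and regulators the median was -0.01 and 2 were upregulated, a share of 10.5% that is close to the 9.76% of all genes. With a mouse left out edgeR called 2 to 4 of the 19, and DESeq2 called 3. The 2 upregulated genes were *Pmepa1*, a TGFβ-induced inhibitor of the receptor-regulated Smads, by 1.03 ± 0.22 (adjusted p = 0.0148), and *Tgif1*, a corepressor that binds SMAD2, by 0.66 ± 0.14 (adjusted p = 0.0128).

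Of the 6 pathway lists, the TGFβ target genes had the highest median. In RC/RC compared to WT kidneys 14 of the 21 tested were upregulated and none was downregulated, with a median log2 fold change of 1.55. *Timp1*, an inhibitor of matrix metalloproteinases, measured 0.957, 0.335, 0.150 and 0.562 CPM in the WT mice and 13.8, 29.6, 12.4 and 5.54 CPM in the RC/RC mice. Even the lowest RC/RC mouse was several times above the WT mice, and its log2 fold change was 4.91 ± 0.62 (SE, adjusted p = 0.00159). The fibrillar collagen gene *Col1a1* measured 37.2, 21.2, 21.5 and 32.8 CPM in WT and 206, 375, 184 and 140 CPM in RC/RC mice, a log2 fold change of 3.00 ± 0.34 (adjusted p = 0.000806). *Col3a1*, which encodes another fibrillar collagen, rose by 2.93 ± 0.33 (adjusted p = 0.000844), and *Lox*, which encodes the collagen cross-linking enzyme lysyl oxidase, by 2.65 ± 0.28 (adjusted p = 0.000603). RC/RC mouse R2 was the highest of its group in 20 of the 22 target genes and RC/RC mouse R4 the lowest in 16. In WT, mouse W1 was the highest in 13 and mouse W2 the lowest in 10, and in the RC/RC:Casp1KO group mouse K4 was the highest in 14 and mouse K3 the lowest in 14. Leaving out any single mouse left 11 to 18 calls.

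**Figure D4:**
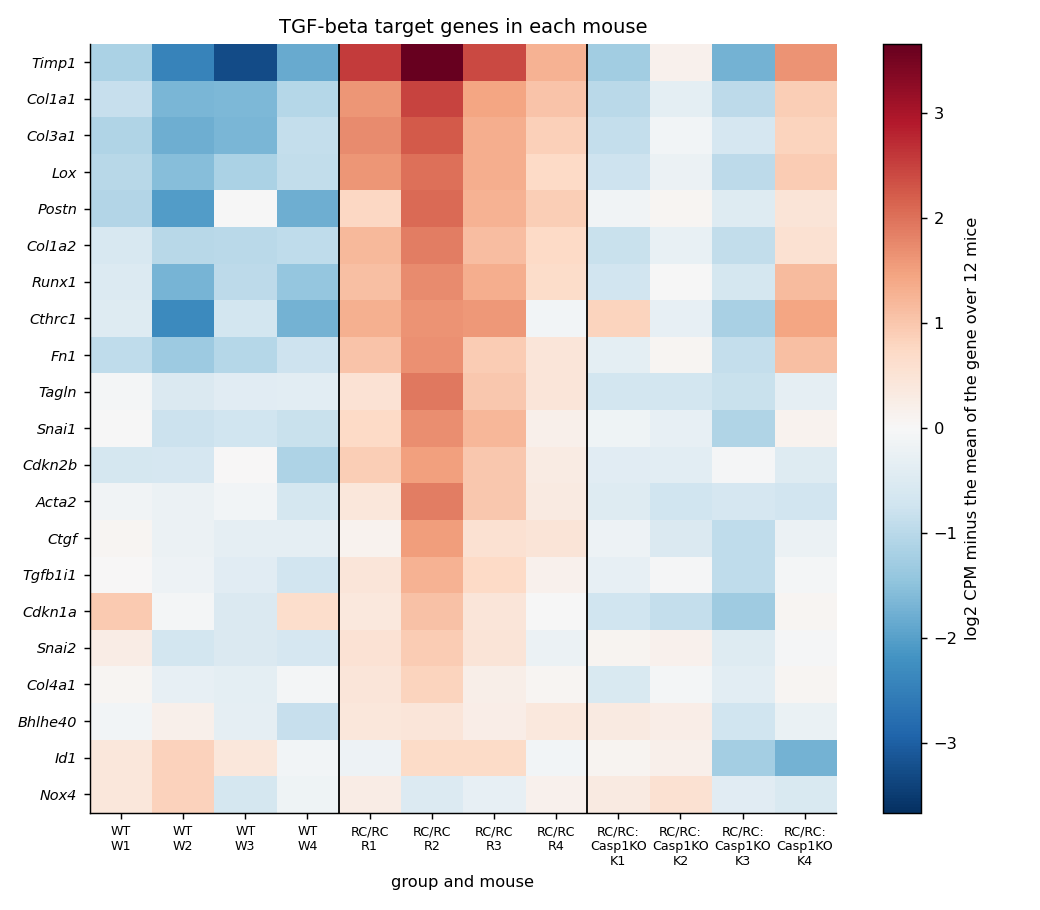
Log2 CPM of 21 of the 22 TGFβ target genes (rows) in each of the 12 mice (columns), as the difference from the mean of that gene over the 12 mice, red for above and blue for below. The 4 RC/RC columns are red for most rows, most of all mouse R2, and RC/RC:Casp1KO mouse K4 is redder than the other mice of its group for the matrix genes.

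In RC/RC:Casp1KO compared to RC/RC kidneys, 20 of the 87 pathway genes tested were called lower and 2 higher, and 13 of the lower calls were TGFβ target genes, out of 22 tested, with a list median log2 fold change of -1.27. Of all genes tested 4.41% were called lower and 7.23% higher, so the 2 higher calls are a smaller share than in all genes. *Tagln*, a smooth muscle and myofibroblast gene, measured 83.1, 222, 115 and 78.3 CPM in RC/RC mice R1 to R4, and 35.8, 36.4, 32.6 and 45.5 CPM in RC/RC:Casp1KO mice K1 to K4. The groups did not overlap, mouse K4 lay near the others of its group, and the log2 fold change was -1.73 ± 0.32 (adjusted p = 0.0146). *Acta2*, which encodes smooth muscle actin, fell by 1.67 ± 0.31 (adjusted p = 0.0157) and *Col1a1* by 1.87 ± 0.47 (adjusted p = 0.0367). For *Timp1* the values were 0.885, 2.51, 0.609 and 7.27 CPM in the RC/RC:Casp1KO mice, and its log2 fold change of -2.43 ± 0.75 did not pass the test (adjusted p = 0.0630).

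The number of target genes called in this comparison depended on single mice. It was 1 without RC/RC:Casp1KO mouse K2, 2 without mouse K1 and 3 without mouse K3 of that group, 2 without RC/RC mouse R3 and 3 without RC/RC mouse R2, and it was 12 to 14 without any other mouse. Without TMM scaling it was 3. *Col1a1* was not called in any of these 6 fits. In the leave-one-out fits its log2 fold change was -1.49 without RC/RC mouse R2, -1.96 without RC/RC mouse R3, and -1.66, -1.80 and -1.67 without RC/RC:Casp1KO mice K1, K2 and K3. *Tagln* was called in every leave-one-out fit, and *Acta2* in all but that without RC/RC:Casp1KO mouse K2 (-1.64).

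The other lists gave fewer calls between RC/RC:Casp1KO and RC/RC kidneys by edgeR. For background, edgeR called 4.41% of all genes tested lower and 7.23% higher. Over all genes DESeq2 called more, 3182 against 1797 by edgeR. Of 13 latent complex genes edgeR called 1, *Itgb5*, an integrin subunit, at -0.58 ± 0.14 (SE, adjusted p = 0.0346), and DESeq2 called 4. With 1 mouse left out edgeR called 0 to 4 of them. *Ltbp2* measured 3.81, 6.92, 6.81 and 54.7 CPM in RC/RC:Casp1KO mice K1 to K4. Mouse K4 was within the RC/RC range and the other 3 were below it, and its log2 fold change of -1.21 ± 0.76 did not pass the test (adjusted p = 0.304). Among the 17 genes listed as other ligands and antagonists edgeR called 4 and DESeq2 called 8. *Dcn* fell by 1.46 ± 0.23 (adjusted p = 0.00880), *Gdf15*, a stress-induced cytokine of the family, by 1.24 ± 0.25 (adjusted p = 0.0198) and *Fstl1* by 1.11 ± 0.27 (adjusted p = 0.0317), while *Bmp7*, a ligand made by kidney tubules, rose by 0.50 ± 0.12 (adjusted p = 0.0323).

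Receptor and Smad regulator genes gave 4 calls between these groups, a share of 18.2% and 10.5% of the genes tested in each list, against 4.41% of all genes called lower and 7.23% called higher. These counts are too small to set the lists apart from all genes. DESeq2 called 4 of the receptors and 3 of the Smad regulators. Of 11 other receptors, *Acvrl1*, an endothelial type I receptor, fell by 0.81 ± 0.19 (adjusted p = 0.0302) and *Acvr2b*, an activin type II receptor, rose by 0.92 ± 0.22 (adjusted p = 0.0335). Of 19 Smad partners and regulators, *Pmepa1* fell by 1.04 ± 0.22 (adjusted p = 0.0228) and *Fkbp1a*, which encodes a protein that binds type I receptors, by 0.59 ± 0.14 (adjusted p = 0.0335). *Pmepa1* measured 73.7, 113, 74.8 and 64.4 CPM in RC/RC mice R1 to R4 and 36.9, 31.1, 35.1 and 55.6 CPM in RC/RC:Casp1KO mice K1 to K4, with no overlap. None of the 5 other Smads was called by edgeR or DESeq2, with 3 at an unadjusted p-value under 0.05, and 1 was called in 2 of the 8 fits with a mouse left out. Single mice decided these calls as well: without RC/RC mouse R3, or RC/RC:Casp1KO mouse K1 or K2, none of the latent complex, receptor or Smad regulator genes was called, and of the other ligands and antagonists 1 gene was. Over all 8 fits with a mouse left out, *Fkbp1a* lost its call in 6, *Itgb5*, *Acvrl1*, *Acvr2b*, *Fstl1* and *Bmp7* in 5, *Pmepa1* in 4 and *Gdf15* in 3, while *Dcn* kept it in all. The sizes kept their direction, with log2 fold changes of -1.24 to -0.81 for *Pmepa1*, -0.92 to -0.57 for *Acvrl1* and -0.70 to -0.48 for *Fkbp1a*.

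Compared to WT, RC/RC:Casp1KO kidneys had 1 pathway gene called by edgeR out of 85 tested, and 11 called by DESeq2. For background, edgeR called 1.13% of the 15346 genes tested higher and 0.893% lower, and DESeq2 called 1390 genes in all. The edgeR call was *Dcn*, which was higher by 1.02 ± 0.13 on the log2 scale (adjusted p = 0.00799) and measured 27.1 to 34.8 CPM in WT and 51.5 to 73.8 CPM in RC/RC:Casp1KO mice. The target genes had a median log2 fold change of 0.28, with none of 21 called by edgeR, 3 called by DESeq2 and 9 at an unadjusted p-value under 0.05. Single values remained far from 0, such as *Col1a1* at 1.15 ± 0.43 (SE, adjusted p = 0.176), *Timp1* at 2.495 ± 0.844 (adjusted p = 0.149) and *Ltbp2* at 4.39 ± 0.94 (adjusted p = 0.0526), and in these 3 genes mouse K4 was the highest of its group.

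**Figure D5:**
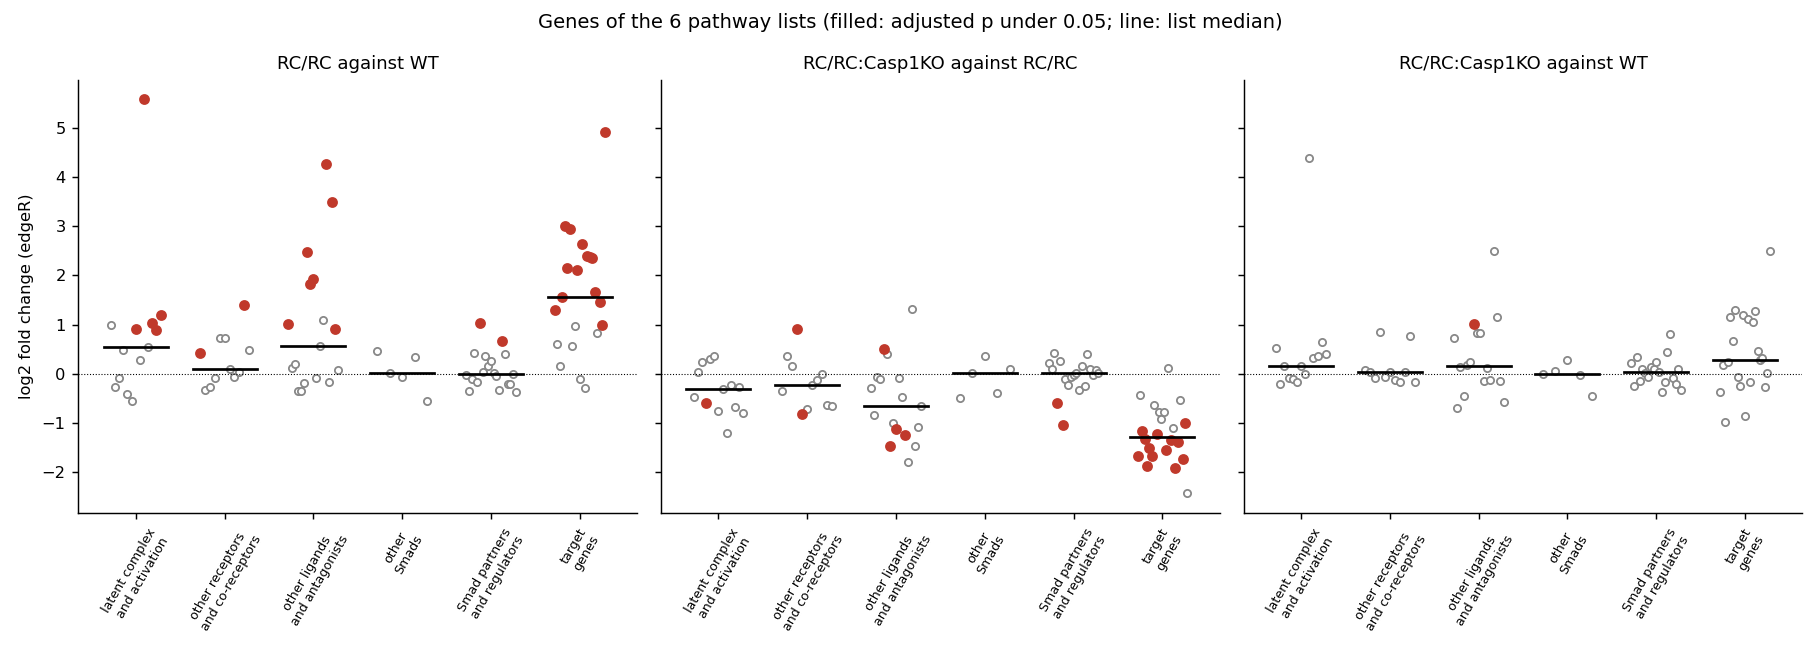
Log2 fold change by edgeR (shared y axis) of every tested gene of the 6 pathway lists in the 3 comparisons, with filled points for an adjusted p-value under 0.05 and a line at each list median. The target genes have medians of 1.55 in RC/RC against WT, -1.27 in RC/RC:Casp1KO against RC/RC and 0.28 in RC/RC:Casp1KO against WT, and the 5 other Smads lie on both sides of 0 in each panel with no filled point.

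The summed markers of several cell types moved with these genes, though not every marker in a list did. The 5 fibroblast markers (*Pdgfra*, *Pdgfrb*, *Dcn*, *Lum* and *Col1a1*, of which *Dcn* and *Col1a1* are also in the pathway lists) summed to 154 ± 20.1 CPM (SD, n = 4) in WT, 586 ± 212 in RC/RC and 236 ± 72.7 in RC/RC:Casp1KO kidneys. All 5 were called higher in RC/RC than in WT, or 3 to 5 with a mouse left out. In RC/RC:Casp1KO against RC/RC 3 were called lower, or 1 to 4 with a mouse left out. Of all genes tested, 9.76% were called higher in the first of these comparisons and 4.41% lower in the second. *Col1a1* was the most abundant of the 5 over all mice together, but not in each group. The mean of *Dcn* was above that of *Col1a1* in WT (31.2 against 28.2 CPM) and in RC/RC:Casp1KO kidneys (62.8 against 61.9 CPM). The 4 macrophage markers analysed were *Cd68*, *Csf1r*, *Itgam* and *C1qa*, with *Csf1r* the most abundant over all mice together. They summed to 98.7 ± 3.03, 195 ± 33.7 and 157 ± 38.0 CPM. Of them 3 were called higher in the first comparison and 1, *C1qa*, lower in the second. That call was lost in 7 of the 8 fits with a mouse left out, and 3 markers were called without RC/RC:Casp1KO mouse K4. *Csf1r* did not fall in the second comparison, with a log2 fold change of 0.15 (edgeR, adjusted p = 0.629). The 5 T cell markers summed to 4.04 ± 1.13, 13.3 ± 4.498 and 9.04 ± 4.71 CPM. These are low sums, so few T cell transcripts were in any library. *Cd4* led the 5 over all mice together, but not in every mouse, for example not in WT mouse W4, where it was 0.4685 of 2.858 CPM. Of the T cell markers 4 were called higher in the first comparison. None was called in the second by edgeR or DESeq2, where 1 had an unadjusted p-value under 0.05. *Cd8a* lay above 0 there, at a log2 fold change of 0.48 (edgeR, adjusted p = 0.402), and the others lay below 0.

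In the opposite direction, the 5 proximal tubule markers summed to 9689 ± 2031 CPM in WT, 5578 ± 2187 in RC/RC and 9647 ± 1094 in RC/RC:Casp1KO kidneys, led by *Slc34a1* over all mice together. Of these, edgeR called 1 lower in the first comparison and 1 higher in the second, or 0 to 2 and 1 to 3 with a mouse left out, and DESeq2 called 3 in each. Of all genes tested, 3.18% were called lower in the first comparison and 7.23% higher in the second. The sums were 368 ± 34.8, 458 ± 75.0 and 361 ± 33.0 CPM for the 5 endothelial markers. *Kdr* led them over all mice together, but not in every mouse, for example not in RC/RC mouse R2, where it was 98.45 of 560.1 CPM. For the 3 principal cell markers, led by *Aqp2*, the sums were 332 ± 116, 662 ± 187 and 446 ± 77.1 CPM. For the 3 markers of the thick ascending limb, led by *Umod*, the sums were 5319 ± 1212, 3752 ± 932 and 4521 ± 1198 CPM, and for the 3 podocyte markers, led by *Podxl*, 425 ± 94.1, 330 ± 49.3 and 345 ± 44.3 CPM. With all mice edgeR called no endothelial, principal cell (2 tested) or thick ascending limb marker. DESeq2 called 2 endothelial markers in each of the first 2 comparisons and 1 principal cell marker in the first. With a mouse left out edgeR called 0 to 2 endothelial markers in the second. Of the podocyte markers *Nphs1* was called lower in the first comparison (log2 fold change -0.62, adjusted p = 0.0372), and in 6 of the 8 fits with a mouse left out no podocyte marker was called. No marker was at 0 in every mouse, and the tubule markers were abundant in every library. The part of these cell types in the TGFβ gene values was not tested, and in whole tissue more cells of a type cannot be told apart from more RNA per cell.

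The genes whose log2 CPM was most alike over the 12 mice were sought for the 4 called genes among 14163 genes with a mean of at least 1 CPM. For *Tgfb1* they were *Rab31* (Pearson's r = 0.985), *Efemp2* (0.985) and *Tapbp* (0.983). For *Tgfb3* they were *Il33* (0.984) and *C1ra* (0.983), and for *Tgfbr2* they were *Ly86* (0.985), *Ncf1* (0.982) and *Nfam1* (0.980). For *Tgfbi* they were *Timp1* (0.994), *Col15a1* (0.988) and *Rasa3* (0.987). These values describe 12 points that share the difference between the groups, and the genes were picked as the highest of many.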

How the data were processed

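Poly(A) RNA of 12 kidneys was sequenced. In the table the authors deposited, the counts are raw numbers of reads assigned to each gene in each mouse. Per the submitters' processing notes, CASAVA 1.8, STAR and the mm10 build were used. The counting tool, annotation and strand setting are not given in the sources used here. The gene lengths deposited by the authors are in base pairs. The deposited columns of the authors' own fold changes, p-values, FPKM values and group means were not used.

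FPKM was computed from the counts, the lengths and the counted reads per library, and CPM with TMM factors over the 12 mice. Each comparison was fitted on the 8 mice of its 2 groups with edgeR 4.0.16 (R 4.3.3, limma 3.58.1), with filterByExpr and TMM factors. The quasi-likelihood test was used with Benjamini-Hochberg adjustment over all genes tested. Group overlap was judged on that CPM, scaled over all 12 mice, for the genes tested in each comparison. Alternatives were DESeq2 1.42.0, other scalings and filters, a spread estimated over all 12 mice and leaving out each mouse. Applying them to the list counts and named list genes was chosen after the data were seen.

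The 10 genes, the lists and the tests were chosen with earlier results of these data known, so neither the choice nor the counts are independent evidence. From each list and comparison the text gives up to 4 called genes with the largest absolute log2 fold change and any called gene that moved against the majority of its list. It gives *Casp1* and *Pkd1* per mouse and the 3 most alike genes of each called gene. A target gene and one of the most alike genes are not reported here, although the target gene stays in the counts and medians of its list. *Timp1* and *Ltbp2* in later comparisons, and *Col1a1* against WT, were chosen for their values. Mice of a group differed by more than sampling noise in all 18 pairs within groups (chi-square per degree of freedom 15.7 to 128, genes with a combined count of at least 20), and p-values measure the spread between these mice. One macrophage marker of the list, *Adgre1*, was not analysed here.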

Additional observations from a re-analysis of the deposited data

How the results depend on the processing

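No paired analysis was possible because the count columns carry no replicate numbers. In RC/RC against WT the 4 calls among the 10 genes were made in every alternative. Over 30 values of the 10 genes under all alternatives, 387 of 420 kept their direction and their side of the threshold, 5 passed it newly, 12 no longer passed it and 16 changed sign, all 16 in values that did not pass the test. For the named genes of the pathway lists, 343 of 416 kept both and 73 no longer passed the threshold. The numbers of genes called were 1971, 1797 and 311 in RC/RC against WT, RC/RC:Casp1KO against RC/RC and RC/RC:Casp1KO against WT. With DESeq2 they were 3018, 3182 and 1390, with library size alone the second was 993, and with at least 10 counts in every mouse the third was 167. With 1 mouse removed at a time they ranged from 1162 to 2440, from 438 to 2789 and from 108 to 547. Of the 10 genes, 0 to 4 were called in RC/RC:Casp1KO against RC/RC when a mouse was left out, and DESeq2 called 1 in RC/RC:Casp1KO against WT. With library size alone the call of *Tgfbi* in RC/RC:Casp1KO against RC/RC was lost (-0.85, adjusted p = 0.0879), and *Smad7* was also called there with the spread of all 12 mice (adjusted p = 0.0352).

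Library size alone moved the median of all genes by 0.13 in RC/RC:Casp1KO against WT on the log2 scale and turned *Tgfb1* and *Tgfbr1* to 0.14 each there, a move of about the same size as that of the median. With at least 10 counts in every mouse they were 0.016 each. With a mouse left out, signs changed within the ranges -0.047 to 0.23 for *Smad3* and -0.025 to 0.13 for *Tgfbr3* in RC/RC against WT, and -0.20 to 0.20 for *Tgfb1*, -0.11 to 0.077 for *Tgfbr1* and -0.075 to 0.38 for *Tgfb3* in RC/RC:Casp1KO against WT. Higher calls made up 75.4%, 62.1% and 55.9% of all calls in the 3 comparisons, 86.1%, 82.0% and 79.8% with library size alone. The cause of these differences was not tested. The counts of *Tgfb2* and *Tgfb3* were 37 to 384 per mouse.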
